A study of Mus musculus with 8 samples.

Results

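The genes described here are 8 members of the receptor machinery with which the kidney proximal tubule takes filtered protein back from the urine: Lrp2, Cubn, Amn, Dab2, Fcgrt, Lrpap1, Ocrl and Gipc1. They were chosen by name, with earlier results of these data known. All 8 were among the 22609 genes counted and among the 13944 genes with enough reads to be tested. The libraries came from the kidney cortex of untreated male C57BL6 mice, 4 aged mice of 30 months and 4 young mice of 5 months, and each library was 1 mouse. These ages are from the labels, and the study's methods give a somewhat higher mean age for the aged mice. RNA was depleted of ribosomal RNA and sequenced with strand kept. The comparison asked which transcripts differ in amount between the aged and the young cortex. No cell type was isolated, so a lower value can come from fewer cells of a type or from less RNA per cell, which cannot be told apart in these bulk samples.

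Megalin, encoded by Lrp2, and cubilin, encoded by Cubn, are large receptors on the apical surface of the proximal tubule that bind albumin, vitamin carriers, hormones and many other filtered proteins. Cubilin has no membrane anchor of its own and reaches the surface in a complex with amnionless, encoded by Amn. Bound cargo enters through clathrin-coated pits, is released in acidified endosomes and goes on to lysosomes, while the receptors recycle. Loss of these receptors or of the endosomal machinery behind them causes proteinuria of low molecular weight proteins.

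Between 14820804 and 19821429 read pairs per library were assigned to genes, so each member was counted at least 427 times in every mouse. All 12 markers of the first and second proximal tubule segments (S1 and S2) were tested, and their summed level was 7659 to 14562 CPM (read pairs scaled to the size of the library after TMM normalisation) in the aged and 12531 to 15660 CPM in the young mice. One library stood apart. On the first principal component, which held 48.2% of the variance, aged mouse 1 was at -71.5 and the other 7 mice lay between -16.3 and 26.2. The same library had the lowest S1 and S2 marker sum and the highest share of reads outside genes, 29.9% against 19.95% to 29.0% in the others. Results that rest on this mouse are therefore given with and without it. Genes of the third segment (S3) had a lower sum in every aged mouse, 1358 to 2762 CPM against 3037 to 4178 CPM, and Acsm3, an acyl-CoA synthetase of that segment, fell (log2 fold change -2.80, adjusted p = 0.049 by edgeR's quasi-likelihood test, and 0.054 without aged mouse 1). Of the lymphocyte and plasma cell markers, Igj, the joining chain of secreted antibodies, rose (2.65, adjusted p = 0.031), and of the macrophage markers Csf1r, the receptor of a macrophage growth factor, fell (-1.004, adjusted p = 0.047). The other 8 macrophage markers had positive values that did not pass, among them Mrc1 at 0.83 (adjusted p = 0.075) with every aged mouse above every young mouse, and the median of that list was 0.49. The calls of all 3 genes were lost when any 1 young mouse was left out, and those of Acsm3 and Csf1r also without aged mouse 2 or aged mouse 3. In the remaining 9 marker lists, which covered other nephron segments, vessels, stroma, red cells and tubular injury, no gene passed. Of the 5 red cell markers, the globin genes Hba-a1, Hba-a2, Hbb-b1 and Hbb-b2 were listed at 0 in every mouse. The part of these other cell types in the results was not tested.

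The promoters of the receptor pair, of the anchor and of the receptor chaperone Lrpap1 are shown. Ratios between these genes and the correlation of Amn and Lrpap1 are described below. A window of 250 bases before to 50 bases after the start site was found in RefSeq (GRCm38.p6) for 7 of the 8 members, all but Gipc1. The windows are printed 5′ to 3′ on the strand of the gene, and capitals mark GGGCGG, the core of an Sp1-type GC box, and CACGTG, an E-box, on either strand.
Lrp2, chr2:69585980-69586279, minus strand: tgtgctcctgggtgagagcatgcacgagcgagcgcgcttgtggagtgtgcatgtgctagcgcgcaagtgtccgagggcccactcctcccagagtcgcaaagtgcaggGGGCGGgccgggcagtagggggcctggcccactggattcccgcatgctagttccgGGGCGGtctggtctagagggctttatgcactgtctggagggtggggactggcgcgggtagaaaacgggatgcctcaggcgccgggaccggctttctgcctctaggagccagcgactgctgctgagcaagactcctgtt
Cubn, chr2:13491827-13492126, minus strand: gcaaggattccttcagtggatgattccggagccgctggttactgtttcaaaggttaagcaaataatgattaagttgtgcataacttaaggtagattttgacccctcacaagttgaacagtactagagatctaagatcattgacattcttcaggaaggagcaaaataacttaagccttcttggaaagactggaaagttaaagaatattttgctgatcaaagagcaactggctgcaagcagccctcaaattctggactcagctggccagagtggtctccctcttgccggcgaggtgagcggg
Amn, chr12:111270846-111271145, plus strand: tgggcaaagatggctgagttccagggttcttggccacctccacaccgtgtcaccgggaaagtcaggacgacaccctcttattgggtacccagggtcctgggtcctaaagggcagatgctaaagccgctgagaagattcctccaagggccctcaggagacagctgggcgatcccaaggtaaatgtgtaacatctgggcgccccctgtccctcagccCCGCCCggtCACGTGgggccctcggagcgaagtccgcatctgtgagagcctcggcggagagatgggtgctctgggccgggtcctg
Lrpap1, chr5:35105650-35105949, minus strand: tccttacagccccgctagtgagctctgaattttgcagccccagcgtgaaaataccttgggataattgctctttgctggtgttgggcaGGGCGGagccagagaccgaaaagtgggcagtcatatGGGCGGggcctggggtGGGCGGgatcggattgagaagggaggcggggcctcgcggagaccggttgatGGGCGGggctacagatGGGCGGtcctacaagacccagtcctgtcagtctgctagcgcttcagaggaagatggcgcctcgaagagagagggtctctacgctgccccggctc
GGGCGG occurred 2 times in the Lrp2 window, 5 times in the Lrpap1 window and 1 time in the Amn window, and was not found in the Cubn window. It was present in 35.7% of the 32851 windows of the same length. CACGTG was found only in the Amn window among the members, beginning 26 bases before the start site, and 7.15% of all windows hold it. The nuclear receptor core AGGTCA, the full HNF1 site and the TATA box TATAAA were searched as well, on both strands, and were in none of the members' windows, against 16.3%, 0.009% and 13.6% of all windows. The motifs were chosen with the windows in view. The Cubn window was 44.3% G and C, below the median of all windows (52.7%), while the Lrp2, Amn and Lrpap1 windows were at 65.0%, 62.3% and 61.3%.

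Per length of transcript, the genes spanned a wide range, and their order was almost the same in every mouse. In the young mice Lrp2 was at 672 ± 50.6 CPM per kilobase (SD, n = 4), Cubn at 173 ± 1.92, Dab2 at 155 ± 8.90, Lrpap1 at 144 ± 5.25, Fcgrt at 107 ± 6.70, Amn at 64.4 ± 4.10, Gipc1 at 20.2 ± 1.30 and Ocrl at 5.47 ± 0.504. All neighbours in this order had separate ranges in the young mice except Dab2 and Lrpap1. In the aged mice Lrp2 again led with 532 ± 195 CPM per kilobase, followed by Cubn with 197 ± 36.7. The ranges of Cubn and Dab2, of Dab2 and Fcgrt and of Fcgrt and Lrpap1 overlapped in the aged mice, and in aged mouse 1 Fcgrt stood above Dab2 and Lrpap1. Amn, Gipc1 and Ocrl were the lowest in that order in all 8 mice. By mean CPM, Lrp2 was rank 4 and Cubn rank 22 of all genes. The receptor Cubn exceeded its anchor Amn 2.68-fold per length in the young and 4.04-fold in the aged mice.

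None of the 8 genes passed an adjusted p of 0.05 between aged and young mice, either alone or with the fold threshold of 1.5. Over all genes tested, 2.95% passed the adjusted p, 1.51% higher and 1.44% lower in aged mice, and 2.06% passed both thresholds, and a count of 0 among 8 genes is near these shares. DESeq2 and limma-voom also called 0 members by the adjusted p. The split of calls over all genes leaned to higher in aged mice with upper-quartile scaling (1.91% higher of 3.07% past the adjusted p) and with library size only (4.28% of 5.57%). The count over all genes, 287 past both thresholds, was itself unstable, from 8 without young mouse 1 to 733 without aged mouse 4. By edgeR's quasi-likelihood test 2 members, Amn and Lrpap1, had an unadjusted p under 0.05, against 25.5% of all genes tested. These were also the only members whose groups did not overlap, both with every aged mouse below every young mouse. That is 2 of 8 members, against 10% of all genes below and 8.85% above. The median log2 fold change of the members was -0.14, and that of all genes 0.03.

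**Figure D1:**
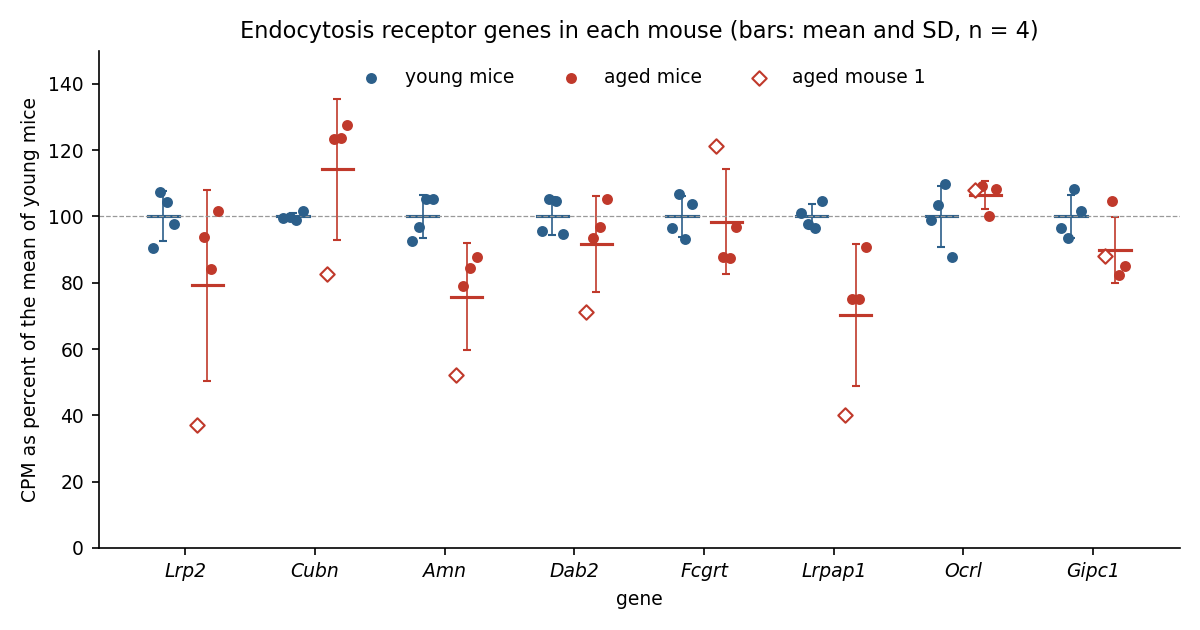
CPM of each of the 8 genes (x axis) in each mouse, as percent of the mean of the 4 young mice (y axis), with the group mean and SD as bars and aged mouse 1 as an open diamond. Aged mouse 1 is the lowest mouse for Lrp2, Cubn, Amn, Dab2 and Lrpap1, at 37.2% to 82.5% of the young mean, and the highest for Fcgrt at 121%.

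Lrp2 (megalin, mm9 chromosome 2, 69262397 to 69424122, minus strand) was at 3862, 9743, 8734 and 10580 CPM in aged mice 1 to 4, and young mice 1 to 4 had 9399, 11166, 10844 and 10169 CPM. Aged mouse 1 was far below all others, and the 3 other aged mice overlapped the young range. The log2 fold change was -0.34 (SE 0.28, 95% interval -0.98 to 0.31, adjusted p = 0.473), and -0.10 without aged mouse 1. The level was 8230 ± 3008 CPM in the 4 aged mice, 9686 ± 925 CPM in the 3 aged mice other than aged mouse 1, and 10394 ± 783 CPM in the 4 young mice (SD), so the wide spread of the aged group rests on that mouse.

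Cubn (cubilin, mm9 chromosome 2, 13197965 to 13413551, minus strand) was at 1619, 2424, 2429 and 2502 CPM in aged mice 1 to 4 and at 1956, 1959, 1943 and 1994 CPM in the young mice. The young mice varied by 1.11% of their mean. The other 3 aged mice lay above all young mice, whereas aged mouse 1 lay below them all. With all 8 mice the log2 fold change was 0.19 (SE 0.15, 95% interval -0.15 to 0.53, adjusted p = 0.435). Without aged mouse 1 it was 0.32 and passed with an adjusted p of 0.047, a call that rests on leaving that mouse out and that the full data did not give. A noncoding gene on the opposite strand, Gm13270, overlaps the 3′ part of Cubn, and reads were counted by strand. The fold change was 0.11 after the trend with GC content and length was removed.

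Amn (amnionless, the membrane anchor of cubilin, mm9 chromosome 12, 112509322 to 112514637, plus strand) was at 56.7, 85.7, 91.6 and 95.1 CPM in the aged mice and at 100.4, 105, 114 and 114 CPM in the young mice. All aged values were below all young values, also without aged mouse 1. The log2 fold change was -0.40 (SE 0.15, 95% interval -0.74 to -0.06, adjusted p = 0.148), and -0.26 with an adjusted p of 0.075 without aged mouse 1.

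Lrpap1 encodes the receptor-associated protein, a chaperone that keeps megalin and related receptors from binding ligands on their way to the surface. The gene lies on mm9 chromosome 5, 35434139 to 35448415, minus strand. It was at 172, 322, 323 and 390 CPM in the aged mice and at 434, 420, 414 and 449 CPM in the young mice. Again every aged mouse was below every young mouse, with aged mouse 1 lowest. The log2 fold change was -0.51 (SE 0.21, 95% interval -0.99 to -0.03, adjusted p = 0.177), and -0.31 with an adjusted p of 0.069 without aged mouse 1. A stretch of 245 bases, 8.19% of the Lrpap1 transcript, matched a second place in the mm9 genome at 98% identity or more, so a small part of its reads could have been assigned elsewhere or set aside. For Cubn the same search found 1.24%, and for the 6 other members it found none.

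Dab2, the adaptor that links megalin to clathrin (mm9 chromosome 15, 6249788 to 6390712, plus strand), was at 514, 676, 701 and 761 CPM in the aged and at 691, 760, 758 and 684 CPM in the young mice. The 3 other aged mice lay within or next to the young range. Its log2 fold change was -0.13 (SE 0.13, 95% interval -0.42 to 0.17, adjusted p = 0.556), and -0.02 without aged mouse 1. Myo6, the motor that moves coated vesicles inward from the microvilli, was at -0.11 (adjusted p = 0.557). Gipc1, an adaptor that binds the tail of megalin and Myo6 (mm9 chromosome 8, 86176577 to 86188687, plus strand), was at 28.7, 34.1, 26.8 and 27.7 CPM in the aged and 31.4, 30.5, 35.3 and 33.1 CPM in the young mice. These groups overlapped through aged mouse 2, and the log2 fold change was -0.15 (SE 0.10, 95% interval -0.37 to 0.07, adjusted p = 0.338).

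Ocrl encodes the inositol phosphatase of early endosomes and coated pits that is mutated in Lowe syndrome (mm9 chromosome X, 45265564 to 45319045, plus strand). Per length of transcript it was the lowest member in every mouse. It was at 31.0, 31.4, 28.8 and 31.1 CPM in the aged and 28.4, 29.7, 31.5 and 25.2 CPM in the young mice. The groups overlapped and the log2 fold change was 0.09 (SE 0.09, 95% interval -0.11 to 0.29, adjusted p = 0.531). Fcgrt encodes the heavy chain of the neonatal Fc receptor, which returns albumin and IgG from endosomes to the blood (mm9 chromosome 7, 52348363 to 52359192, minus strand). It was at 225, 163, 162 and 180 CPM in the aged and 179, 198, 173 and 192 CPM in the young mice. Here aged mouse 1 was the highest of all 8 mice. The log2 fold change was -0.02 (SE 0.12, 95% interval -0.29 to 0.24, adjusted p = 0.912), and -0.14 without aged mouse 1 (adjusted p = 0.277). Its sign turned under 2 other scalings and without aged mouse 2, aged mouse 3 or young mouse 2.

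**Figure D2:**
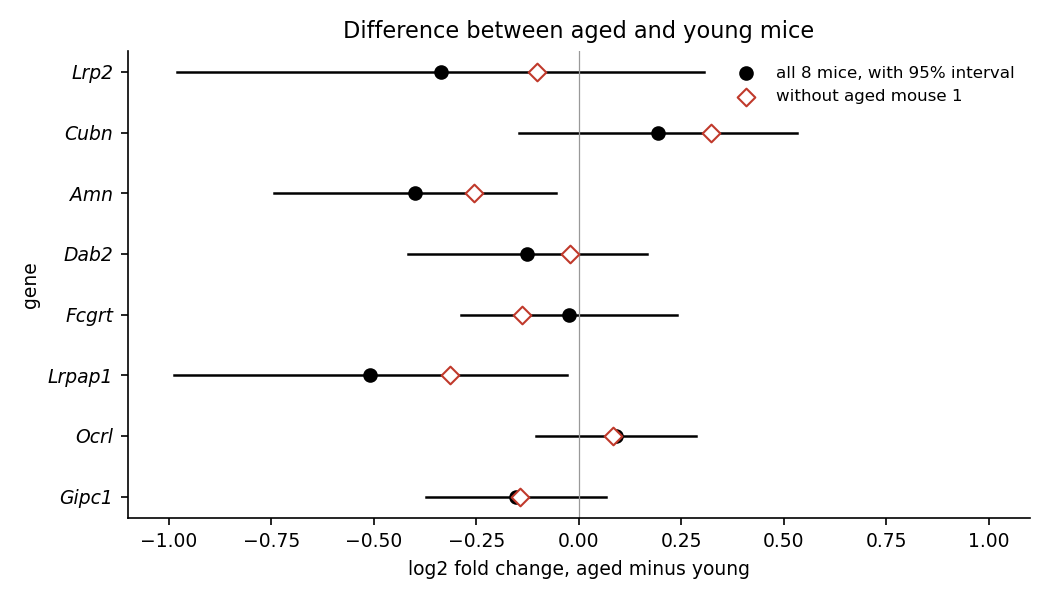
Log2 fold change of each gene, aged minus young (x axis), with the 95% interval of the edgeR fit over all 8 mice (black) and the value without aged mouse 1 (open diamond). Only the intervals of Amn and Lrpap1 lie below 0, before adjustment for the number of genes tested, and the diamonds of Lrp2, Amn, Dab2 and Lrpap1 lie nearer to 0 than the full-data values.

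Ratios of read counts between partner genes within a mouse do not depend on the depth or scaling of its library. The ratio of Cubn to Amn was 28.6, 28.3, 26.5 and 26.3 in aged mice 1 to 4, while young mice 1 to 4 had 19.5, 18.7, 17 and 17.5. All aged mice, aged mouse 1 included, were well above all young mice. The mean was 27.4 ± 1.18 in aged and 18.1 ± 1.13 in young mice (SD, n = 4 each), a log2 difference of 0.60, and 0.58 without aged mouse 1. In an exact two-sided permutation test the p was 0.029, the smallest that 4 against 4 mice can give. It was 0.071 after adjustment over the 5 ratios tested, so the ratio did not pass. At that smallest p a ratio can pass the adjustment only if enough of the other ratios reach it too. The ratio of Lrp2 to Cubn was 2.38, 4.02, 3.595 and 4.23 in aged mice and 4.80, 5.70, 5.58 and 5.10 in young mice. It was lower in every aged than in every young mouse, by -0.60 on the log2 scale and by -0.42 without aged mouse 1 (exact permutation p = 0.029, adjusted 0.071).

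The other 3 ratios overlapped between the groups. Lrp2 to Lrpap1, receptor to chaperone, was 26.7 ± 3.20 in aged and 24.3 ± 2.49 in young mice (exact permutation p = 0.2, n = 4 each). Lrp2 to Dab2 was 12.1 ± 3.16 and 14.4 ± 0.557 (exact permutation p = 0.171, n = 4 each), and aged mouse 1 was alone at 7.51. B2m encodes the light chain with which the Fc receptor chain pairs, and it also serves the class I antigen receptors. It was at 215, 260, 245 and 286 CPM in aged and 203, 168, 168 and 183 CPM in young mice. Every aged mouse was above every young mouse, with a log2 fold change of 0.48 that narrowly missed the threshold (adjusted p = 0.053). It passed without aged mouse 1 (0.020) and did not pass without any other single mouse (adjusted p up to 0.14). The ratio of Fcgrt to B2m was 0.741 ± 0.204 in aged and 1.03 ± 0.121 in young mice (exact permutation p = 0.086, adjusted 0.143), and its log2 difference went from -0.51 to -0.69 without aged mouse 1.

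**Figure D3:**
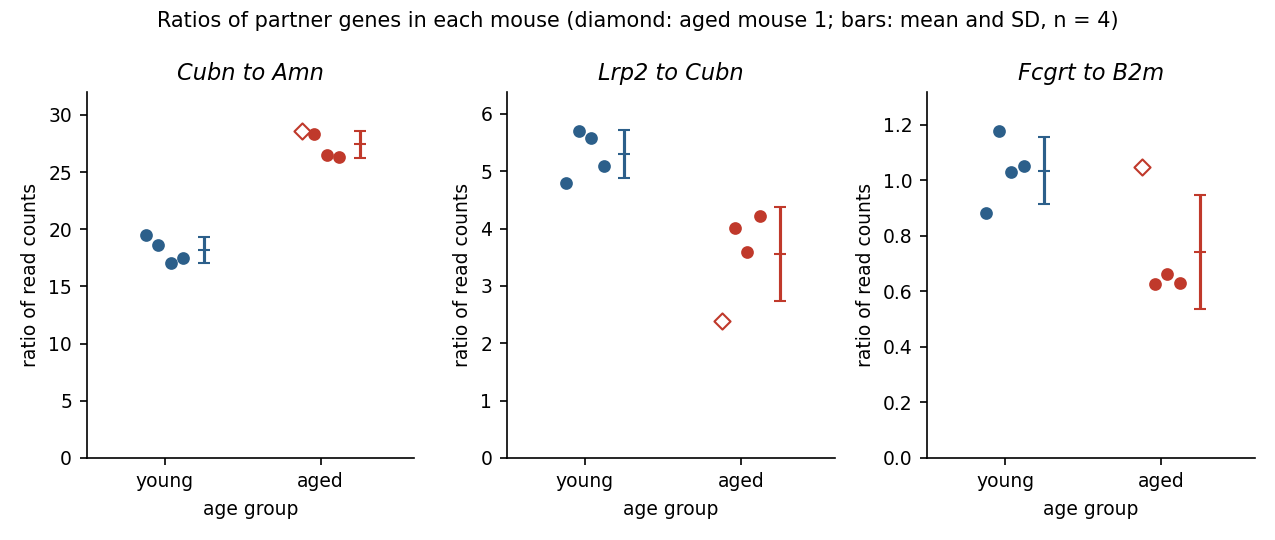
Ratio of read counts (y axis) of Cubn to Amn, Lrp2 to Cubn and Fcgrt to B2m in each young and aged mouse (points), with mean and SD beside them and aged mouse 1 as an open diamond. For Cubn to Amn the aged mice lie between 26.3 and 28.6 and the young between 17 and 19.5, for Lrp2 to Cubn the groups are also apart, and for Fcgrt to B2m aged mouse 1 lies among the young mice.

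To set the members against the amount of proximal tubule RNA, each was expressed relative to the mean log2 CPM of the 12 S1 and S2 markers. That mean was 8.34 in aged mouse 1 and 9.06 to 9.56 in the other 7 mice. On this scale all 8 members overlapped between the groups, and the lowest adjusted p was 0.229 by exact permutation over 8 members. Lrpap1 differed by -0.47 log2 units, Lrp2 by -0.34, Amn by -0.33 and Cubn by 0.27. The markers themselves did not move as one. Slc22a6, an organic anion transporter, was at -0.90 (adjusted p = 0.107) and Slc6a19, a neutral amino acid transporter, at 0.66 (adjusted p = 0.122), and the values depended on how the markers were summarised. With their median in place of their mean, Lrpap1 differed by -0.81, Lrp2 by -0.67 and Amn by -0.66 (adjusted p = 0.076 each by exact permutation). On that median scale every aged mouse was below every young mouse for Lrpap1, Lrp2 and Amn. The smallest p this permutation test can give is 0.029 before adjustment, so over 8 members no gene could pass alone. The sign of Cubn turned to -0.06 with the median.

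Across the 8 mice, 28 pairs of members were compared by the correlation of their log2 CPM. Amn and Lrpap1 had the highest Pearson r, 0.97 (permutation p = 0.00089, adjusted 0.025) with a Spearman rho of 0.83 (permutation p = 0.015, adjusted 0.431). Without aged mouse 1 and young mouse 3, the 2 mice farthest from the median of Amn, r was 0.90. It was 0.95 after the group means were taken off and 0.86 without aged mouse 1 alone. The first value keeps aged mouse 1, the lowest mouse for Amn and for Lrpap1. The other keeps the gap between aged and young mice, and r with both removed was not computed. Lrp2 and Dab2 had an r of 0.96 (permutation p = 0.0046, adjusted 0.064) and a rho of 0.71 (permutation p = 0.058, adjusted 0.537), and r was 0.86 without the 2 mice farthest from the median of Lrp2 and 0.73 without aged mouse 1. The receptor pair Lrp2 and Cubn had an r of 0.59 (permutation p = 0.115, adjusted 0.314) and a rho of 0.12 (permutation p = 0.793, adjusted 0.925). Its r was -0.15 without the 2 farthest mice and -0.41 without aged mouse 1, so that the pooled value rests on that mouse. After the group means were taken off, with all 8 mice, its r was 0.98. That value keeps aged mouse 1, the lowest of all mice for Lrp2 and for Cubn, and was not computed without it. Lrp2 had an r of 0.94 with Lrpap1 and of 0.93 with Amn (adjusted permutation p = 0.096 each). Without aged mouse 1 these fell to 0.552 with Lrpap1 and 0.549 with Amn. Cubn and Amn had an r of 0.33 (adjusted permutation p = 0.659), and -0.83 without aged mouse 1. Among the 5 tested genes most like Lrp2 were Gm10845, Ptpn6, Lmbrd2 and Kif12, with r of 0.992 to 0.995 over 8 mice, and Dab2 was the nearest member at rank 132. Those most like Cubn were Sdc3, Fkbp9, Acsl6, Sult1c2 and Slc25a23, with r of 0.954 to 0.994, and Lrp2 was the nearest member at rank 1477. These rankings keep aged mouse 1, the lowest of all mice for Lrp2 and for Cubn, and were not made without it.

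The rest of the uptake route is given by lists of coat, endosome, acidification, lysosome, receptor family and cargo genes. These lists were chosen with earlier results of these data known, which limits their comparison with the shares of all genes. Of 24 coat and adaptor genes none passed the adjusted p by edgeR (3 by DESeq2 and 1 by limma-voom), and 6 had an unadjusted p under 0.05, a share near the 25.5% of all genes. The 2 with the smallest p were Sh3kbp1, an adaptor of receptor downregulation (0.43, adjusted p = 0.053), and Ap2s1, a subunit of the clathrin adaptor AP2 (-0.29, adjusted p = 0.092). The median of the list was -0.06.

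Of 29 early and recycling endosome genes 1 passed (3.45%, near the 2.95% of all genes). Appl2, an adaptor of early endosomes that binds Rab5, was at 59.7, 57.8, 58.6 and 60.7 CPM in the aged and 33.6, 38.5, 38.9 and 33.6 CPM in the young mice. The aged mice, aged mouse 1 among them, were all far above the young, with a log2 fold change of 0.71 (SE 0.08, adjusted p = 0.0092). The call was lost without young mouse 1 or young mouse 4, with an adjusted p of at most 0.059, and held without any other single mouse. Its paralog Appl1 was at 0.12 (adjusted p = 0.410).

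The 21 tested genes of endosome acidification and ion exchange were mostly lower in aged mice. Of these, 18 had a negative fold change, 11 had every aged mouse below every young mouse (52.4%, against 10% of all genes), and the median was -0.28, or -0.19 without aged mouse 1, against 0.03 for all genes. The test called 2 genes lower (9.52%, against 1.44% of all genes) and none higher. Atp6v0a2, a membrane subunit of the proton pump, was at 52.6, 53.1, 61.5 and 64.3 CPM in aged and 82.4, 74.7, 87.0 and 81.3 CPM in young mice (log2 fold change -0.49, adjusted p = 0.037). Clcn4-2, an endosomal chloride-proton exchanger, was at 100.2, 116, 117 and 123 CPM in aged and 156, 148, 150.1 and 145 CPM in young mice (-0.39, adjusted p = 0.042). Both calls held without aged mouse 1 or aged mouse 4 and were lost without any other single mouse. Clcn5, the endosomal exchanger mutated in Dent disease, was at 78.4, 109, 122 and 131 CPM in aged and 133, 152, 141 and 132 CPM in young mice. These groups were apart by a narrow margin, and the value of -0.34 did not pass (adjusted p = 0.188). Slc9a3, the apical sodium-proton exchanger NHE3, was at -0.68 (adjusted p = 0.088), with every aged mouse below every young mouse.

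The 21 tested lysosomal genes were split by sign, 11 with a negative and 10 with a positive fold change, and their median was -0.05. Of these, 5 had every aged mouse below every young mouse (23.8%, against 10% of all genes). None had every aged mouse above (against 8.85% of all genes). The test called 1 gene lower (4.76%, against 1.44% of all genes). Their summed level was 4960 to 5645 CPM in the aged and 5682 to 5966 CPM in the young mice. Of 11 tested relatives of megalin in the LDL receptor family and sortilin group none passed the edgeR test (1 by DESeq2 and 1 by limma-voom), and 2 had an unadjusted p under 0.05, below the 25.5% of all genes. They were Lrp10 (-0.37, adjusted p = 0.064) and Lrp1 (0.37, adjusted p = 0.133), a broad scavenger receptor.

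Of 15 tested genes for cargo and its handling, 3 rose and 1 fell (26.7% called, against 2.95% of all genes). Gc, the vitamin D binding protein and a ligand of megalin and cubilin, was at 149.5, 62.6, 20.9 and 14.3 CPM in aged and 5.92, 5.82, 7.41 and 4.73 CPM in young mice. Every aged mouse was above the young, over a wide range with aged mouse 1 highest (log2 fold change 3.38, adjusted p = 0.045, and 2.45 without aged mouse 1, adjusted p = 0.028). Cyp27b1, the enzyme that activates vitamin D, rose by 1.17 (adjusted p = 0.039), and Alb, albumin, by 1.22 (adjusted p = 0.040) from 7.76 ± 1.92 to 17.97 ± 5.31 CPM (SD, n = 4). Ttr, transthyretin, a carrier of thyroid hormone and of retinol binding protein, fell by 2.02 on the log2 scale (adjusted p = 0.039) from 48.5 ± 14.9 to 11.95 ± 7.55 CPM (SD, n = 4). These are transcripts in the cortex, and filtered protein was not measured. The calls of Gc and Ttr were lost without aged mouse 2, aged mouse 3 or any young mouse, that of Alb without aged mouse 2 or any young mouse, and that of Cyp27b1 without aged mouse 3 or any young mouse.

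**Figure D4:**
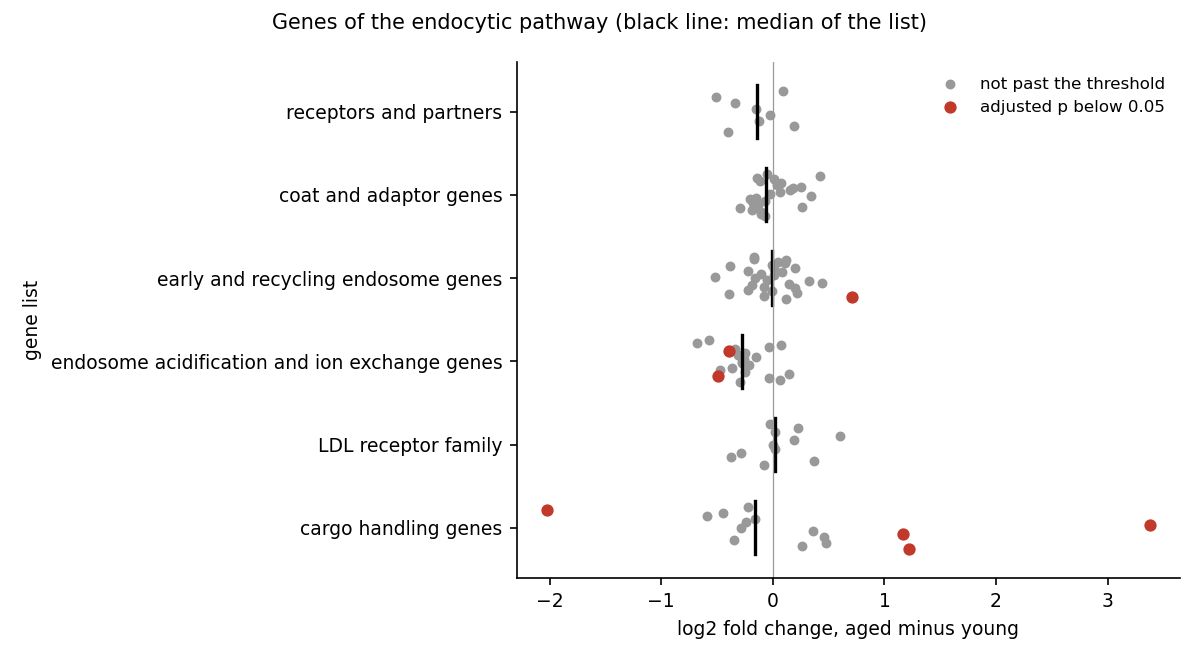
Log2 fold change, aged minus young (x axis), of every tested gene in the receptor group and in 5 lists of the uptake route (rows), with the list median as a black line and genes past an adjusted p of 0.05 in red. The acidification list has its median at -0.28 with 18 of 21 genes below 0, and the cargo list holds the widest values, from -2.02 for Ttr to 3.38 for Gc.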

How the data were processed

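Kidney cortex RNA from 4 aged and 4 young male mice was measured by stranded RNA-Seq after ribosomal RNA depletion. The authors deposited a table of read-pair counts per gene for each mouse, made by aligning to mm9 with TopHat2 and assigning pairs to RefSeq genes with HTSeq-count, strand taken into account. CASAVA 1.8.2 is named in the submitters' processing notes, and the other versions are not given in the sources used here. Reads placed outside genes (19.95% to 29.9% of a library), at several places (34.3% to 39.1%) or ambiguous stayed out of library sizes. The joint count table was left aside, since each library has a table of its own.

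Counts were fitted with edgeR 4.0.16 (quasi-likelihood test, TMM scaling, R 4.3.3) across all 8 mice, with no covariate, on the 13944 genes that filterByExpr kept at a minimum count of 10, and p-values were adjusted by Benjamini-Hochberg over all of them. A gene was called at an adjusted p below 0.05, with a fold above 1.5 where stated. Log2 CPM used a prior count of 2. Adjusted p-values in the text are from this fit unless another test is named. Ratios and values relative to markers were tested by exact two-sided permutation over 70 orders. Intervals and SE cover the spread between mice.

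The members and lists were chosen with earlier results of these data known. Named were all 8 members, B2m, Clcn5, Slc9a3, Appl1 and Myo6, in each pathway list and the S1 and S2 markers the genes past the threshold or else the 2 with the smallest p, in other marker lists only genes past it (and Mrc1, chosen after its values were seen), and the 5 genes most like Lrp2 and Cubn. Results for some genes that this rule selects are not reported here. The alternatives were DESeq2 1.42.0 and its size factors, upper-quartile and library-size scaling, limma-voom 3.58.1, robust fitting, other filters, a GC and length trend, a replicate block and leaving out each mouse. On counts simulated for aged against young over 13842 genes, edgeR recovered 87.0% of 192 changed genes with 6.18% false calls, DESeq2 92.7% with 19.8%. These shares are for all changed genes together and are not split by size of change. Recovery at fold changes as small as those of the members is not given here. Copies were searched with blastn 2.17.0 at 98% identity over 100 bases, in mm9. Promoter windows are RefSeq, GRCm38.p6. No pair of libraries agreed within sampling noise (smallest chi-square per gene 8.98).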

Additional observations from a re-analysis of the deposited data

Results flagged for a closer look

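A total of 3 gaps within a group of 4 mice were larger than Dixon's 95% critical value for 4 samples, of 28 groups tested, and chance flags about 1 in 20. Cubn was at 1619 CPM in aged mouse 1, against 2424 to 2502 CPM in the other aged mice. The ratio of Fcgrt to B2m was 1.05 in aged mouse 1, against 0.627 to 0.661 in the other aged mice. Ocrl was at 28.8 CPM in aged mouse 3, against 31.0 to 31.4 CPM in the other aged mice. Aged mouse 1 is also the mouse with the lowest S1 and S2 marker mean and the highest share of reads outside genes, and the part of these in its values was not tested.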

How the results depend on the processing

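The 8 members kept their direction and their side of the threshold in 78 of 80 values under other fits and in 60 of 64 with 1 mouse left out. The exceptions were Cubn, which passed without aged mouse 1 (0.32), and Fcgrt, which turned to 0.0165 with upper-quartile scaling, 0.0896 with library size only, and 0.0264, 0.0275 and 0.0109 without aged mouse 2, aged mouse 3 and young mouse 2. No member passed both thresholds in any alternative, and the count past the adjusted p alone was 0 to 1 with a mouse left out. Genes past both thresholds numbered 488 with library size only, 873 by DESeq2, 483 by limma-voom with quality weights, and 8 to 733 with a mouse left out. Library size only moved the median of all genes to 0.14.

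With the replicate number as a block 130 genes passed both thresholds. The labels give the mice only a number, and these values cannot decide whether it pairs them. The correlations of same-numbered mice were 0.21, 0.04, 0.20 and -0.03. Aged mice 1, 2 and 3 and young mice 1 and 3 correlated best with their own number. Aged mouse 4, young mouse 2 and young mouse 4 correlated best with another number. The block left 0 of the acidification and cargo calls and changed no member's call.

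The ratios kept their direction in all 50 alternatives, and 3 passed without aged mouse 1 (adjusted p = 0.048 each by exact permutation, n = 3 against 4). These alternatives left out each mouse or added a small pseudocount, which can hardly move ratios of counts this high. The 3 ratios that passed without aged mouse 1 were each at the smallest p of the test. None of them could have passed the adjustment without the others. The fitted log2 fold change of Cubn minus that of Amn was 0.59, and 0.52 after the GC and length trend was removed. With a mouse left out the log2 difference of Cubn to Amn was 0.57 to 0.63, of Lrp2 to Cubn -0.70 to -0.42 and of Fcgrt to B2m -0.69 to -0.44. Relative to the S1 and S2 markers, the median in place of the mean moved Lrp2 to -0.67, Amn to -0.66 and Lrpap1 to -0.81 and turned Cubn to -0.0646, Fcgrt to -0.27 and Ocrl to -0.14. With a mouse left out the values ran from -0.29 to 0.27 for Fcgrt, from -0.0692 to 0.33 for Ocrl, from -0.18 to 0.10 for Dab2 and from -0.30 to 0.0506 for Gipc1. Without aged mouse 1 the correlation of Lrp2 and Cubn turned to -0.41. The alternatives for genes outside the members were chosen after seeing the data. Of the list counts, 60 of 108 stayed within 1.5 times. The causes were not tested.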
